A study of Mus musculus with 16 samples.

Results

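Of the 1745 regions that a Med26 library of mouse neural progenitor cells listed after Cbx3 siRNA, 1229 had no counterpart in the Med26 library of control siRNA cells (70.4%). These Cbx3 siRNA-alone Med26 regions are described here: in each library, 50 bp windows with gaps of at most 200 bp were joined into a region, and regions were chosen by having no base in common with any region of the control siRNA list. They were selected on Med26 listing in the 2 siRNA arms, so width, Med26 signal and distance to control regions are given as descriptions, while Pol II, Cdk8 and Cbx3 were read from other libraries. The 9 lists together hold 605681 merged regions. The other 516 Med26 regions of the Cbx3 siRNA list are called regions of both arms, and 5474 of the 5990 control siRNA regions were listed after control siRNA alone.

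The cells were V6.5 mouse embryonic stem cells turned into neural progenitors by 4 days as embryoid bodies and growth as a monolayer, and they were crosslinked with 1% formaldehyde. Med26, Cdk8 and Pol II were mapped by chromatin immunoprecipitation with sequencing (ChIP-seq) in cells that received siRNA against Cbx3 or control siRNA against luciferase, 72 hours before harvest. Pol II and Cbx3 were also mapped in untreated cells, Cbx3 in 2 libraries (sets 1 and 2). With a single library for each antibody and arm, no difference between the arms could be checked against replicates, and no p-values are printed. The knockdown is by transfected siRNA in 1 cell line, and the amount of Cbx3 left was not analysed here.

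Mediator is a large complex that carries signals from transcription factors to RNA polymerase II (Pol II) at promoters and enhancers. Med26 is a subunit of it that docks elongation factors and is found in the forms of Mediator that bind Pol II. Cdk8 is the kinase of a detachable Mediator module, and Cbx3, the heterochromatin protein HP1 gamma, binds methylated histone tails and is also found over the bodies of active genes. A Med26 region that belongs to a working promoter is therefore usually met together with Pol II. Coordinates below are of build mm9, counted from 1; regions carry no gene names, since mm9 gene positions were not used here.

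The values are the authors' signal per window, and a region is given the signal of its highest window. All signals were whole multiples of 1 step per library, which was the same in both Med26 libraries. If 50 steps stand for 1 read over a whole window, a reading taken from the values, 1 read adds 0.962 to the Med26 signal. The lists hold 2721 Med26 windows after Cbx3 siRNA and 15546 after control siRNA, none below a signal of 6.01. Absence from a list can therefore mean signal just below that level, and total reads per library are unknown. Intervals in the text are 95% intervals of counting error alone.

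Most Cbx3 siRNA-alone regions were narrow and lay close to the lowest listed signal. A single window made up 941 of them (76.6%, Wilson interval 74.1 to 78.8%), 247 had 2 windows and 41 had 3 or more. Their median signal was 7.47, or 7.76 reads on the reading above, with quartiles of 6.78 and 8.14. Of the 1229, 408 (33.2%) lay below a signal of 7 and 55 (4.48%) at 10 or above. Regions of both arms were wider and higher in the same library, with 182 of 516 single windows (35.3%, interval 31.3 to 39.5%) and a median signal of 9.47. Control siRNA-alone regions had 38.3% single windows and a median signal of 9.39. Together the Cbx3 siRNA-alone regions cover 78650 bp, against 656200 bp for the control siRNA-alone regions.

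The distances to the nearest Med26 control region ran from touching to over 100 kb, and on a log scale fewer regions lay at 1 to 10 kb. Of the 1227 regions on a chromosome with a control region, 77 touched one with no base between them, 168 lay within 200 bp (13.7%) and 263 within 1 kb (21.4%, interval 19.2 to 23.8%). Another 74 lay at 1 to 10 kb, 394 at 10 to 100 kb and 496 farther off, and the median distance was 56050 bp (interval 45500 to 68300 bp). A limit of 1 kb, near the low point on the log scale, was used to split regions beside control Med26 from those farther off. The low point depends on the log scale, whose classes widen with distance, and is not a gap in regions per base. That limit was chosen after the distances were seen.

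**Figure D1:**
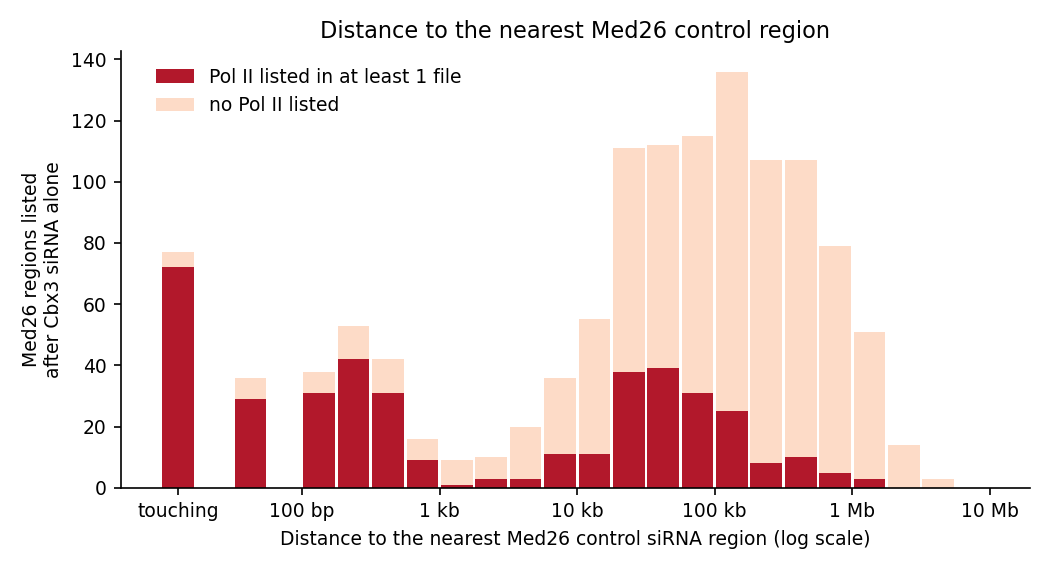
Histogram of the 1227 Cbx3 siRNA-alone Med26 regions by distance to the nearest Med26 control siRNA region (x axis, log scale, with regions that touch one in a bar of their own) and number of regions (y axis); dark bars have Pol II listed in at least 1 of 3 libraries and pale bars in none. The 263 regions within 1 kb are mostly dark, and the broad hump beyond 10 kb is mostly pale.

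Pol II followed this split. It was listed in at least 1 of its 3 libraries at 72 of the 77 touching regions (93.5%), at 73 of 91 regions at 1 to 200 bp (80.2%) and at 69 of 95 at over 200 bp and up to 1 kb (72.6%). At 1 to 10 kb the count was 18 of 74 (24.3%), at 10 to 100 kb 119 of 394 (30.2%) and beyond 100 kb 51 of 496 (10.3%, interval 7.91 to 13.3%). Within 1 kb the share was thus 81.4% (interval 76.2 to 85.6%), against 19.5% (interval 17.1 to 22.1%) of the 966 regions farther away or on a chromosome without a control region. These intervals do not overlap. The regions within 1 kb also had more signal, with a median of 7.91 against 7.33 farther off, and fewer single windows, 63.9% against 80.0%.

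Regions within 1 kb lay beside a region where the control siRNA library listed Med26. Whether such a pair marks a single site was not tested. Each of the 263 had a control neighbour of its own, and 16 of these neighbours (6.08%) were themselves listed after Cbx3 siRNA. The selection limits this share. A Cbx3 siRNA window in the neighbour and within 200 bp of the region would have been joined to it. The joined region would then overlap a control region and be left out. The share of 8.61% among all control regions has no such limit, so no comparison is drawn. A single Pol II region of the Cbx3 siRNA library covered both the region and its control neighbour in 165 of 263 cases (62.7%, interval 56.8 to 68.4%), and one of the control siRNA library did in 179 (68.1%). The median signal was 7.91 for the regions after Cbx3 siRNA and 11.1 for their control neighbours, and 215 of the 263 regions (81.7%) were lower than the neighbour. These signals belong to the Med26 lists that the selection used, and the median over all control regions was 9.64. The difference is therefore a description and is not read as a result. When a control region within 1 kb counts as a match, 779 of 1745 Cbx3 siRNA regions (44.6%) had one, instead of 516 (29.6%).

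The Med26 lists differ in length, with 1745 regions after Cbx3 siRNA and 5990 after control siRNA. Cdk8, with 2 lists of like length, is set beside them. Of its 6094 Cbx3 siRNA regions 5458 had no overlap with its 5574 control regions (89.6%), a larger share than for Med26, and for Pol II it was 5241 of 16426 (31.9%). Only 4.91% (interval 4.37 to 5.52%) of the Cdk8 regions listed after Cbx3 siRNA alone lay within 1 kb of a Cdk8 control region, against the 21.4% of Med26. Their single-window share was 68.5% and their Pol II share after Cbx3 siRNA 21.1%, against 76.6% and 27.4% for Med26. The Cdk8 antibody, its signal per read and its list lengths differ, and its arms differ by the same knockdown. These are values side by side and no measure of the mismatch to be met for Med26.

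Regions that show these ranges can be followed one by one. On chromosome 11 from 48613901 to 48614000 Med26 had a signal of 15.1 after Cbx3 siRNA, and a control region with a signal of 10.4 ended at the base just before it, from 48613751 to 48613900. Pol II there was 37.1 after Cbx3 siRNA, 51.0 after control siRNA and 30.4 in untreated cells, and neither Cdk8 nor Cbx3 was listed. The listed Med26 windows of the siRNA arms thus lay side by side at this place, with no base in common. On chromosome 7 from 118226851 to 118226950 Med26 was 13.4 after Cbx3 siRNA, against 14.6 in the touching control region, with Pol II of 63.0 after Cbx3 siRNA, 69.8 after control siRNA and 43.3 untreated. On chromosome 9 from 57110201 to 57110300 it was 13.1 after Cbx3 siRNA, against 15.4 in the touching control region. Pol II was lower at this site, 15.7 after Cbx3 siRNA and 26.6 after control siRNA, and Cbx3 set 1 listed it with a signal of 86.8.

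These 3 are the nearest of the 77 touching regions when ranked by signal, just inside the rule. Outside the rule, 241 regions of both arms had a shared stretch of a single window of 50 bp. Single windows, 182 of the 516 regions of both arms, can share no more than that. An example is chromosome 17 from 3084351 to 3084400, with Med26 of 21.2 after Cbx3 siRNA and 34.8 after control siRNA. On chromosome 5 from 100858351 to 100858500 it was 14.7 after Cbx3 siRNA and 13.5 after control siRNA. On chromosome 15 from 102501351 to 102501400 it was 14.5 after Cbx3 siRNA and 18.6 after control siRNA. All 3 had Pol II in every Pol II library. The windows on chromosomes 17 and 15 lay wholly inside their control regions, so they were full matches. On chromosome 5 the match was partial, with a control region from 100858451 to 100858550.

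The longest Cbx3 siRNA-alone region was the only one of 6 windows, on chromosome 1 from 173224751 to 173225050, with 300 bp listed and a Med26 signal of 11.6. A control region lay 50 bp away, from 173224501 to 173224700, with a signal of 13.8. Pol II was 16.7 after Cbx3 siRNA, 26.6 after control siRNA and 13.6 in untreated cells. Another 12 regions had 4 windows, or 200 bp. Of these, the region on chromosome 1 from 181890051 to 181890250 (signal 8.78) touched a control region, and that on chromosome 16 from 37868601 to 37868800 (signal 8.82) lay 250 bp from one. The region on chromosome 11 from 6344051 to 6344250 (signal 10.3) lay 700 bp from one. All 4 of these long regions beside control Med26 had Pol II in all 3 libraries.

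Other long regions stood well apart from control Med26. On chromosome 4 from 40216651 to 40216850 Med26 reached 13.4 over 200 bp, with the nearest control region 9500 bp away. Pol II was strong there in every library, 47.3 after Cbx3 siRNA, 58.7 after control siRNA and 30.9 untreated, and Cbx3 set 1 was listed at 55.4. On chromosome 9 from 44581101 to 44581300 Med26 was 11.6 with the nearest control region 26250 bp away, and Pol II was 18.8, 24.2 and 14.1 in the Cbx3 siRNA, control siRNA and untreated libraries. On chromosome 6 from 51220751 to 51220950 Med26 was 11.4, 108750 bp from a control region, and Pol II was 18.2 after Cbx3 siRNA, 15.3 after control siRNA and 13.1 untreated. At each of these sites Pol II was listed in untreated cells and in both siRNA arms.

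Other long regions at Pol II were on chromosome 18 from 31948651 to 31948850, with Med26 of 8.80 and a control region 28600 bp off, while another on chromosome 3 from 57455501 to 57455700 also had 8.80, with one 75150 bp off. The exception among the 10 longest was on chromosome 3 from 105962051 to 105962250. Its 4 windows reached a Med26 signal of 9.39, the nearest control region was 199950 bp away, and no Pol II, Cdk8 or Cbx3 library listed it.

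**Figure D2:**
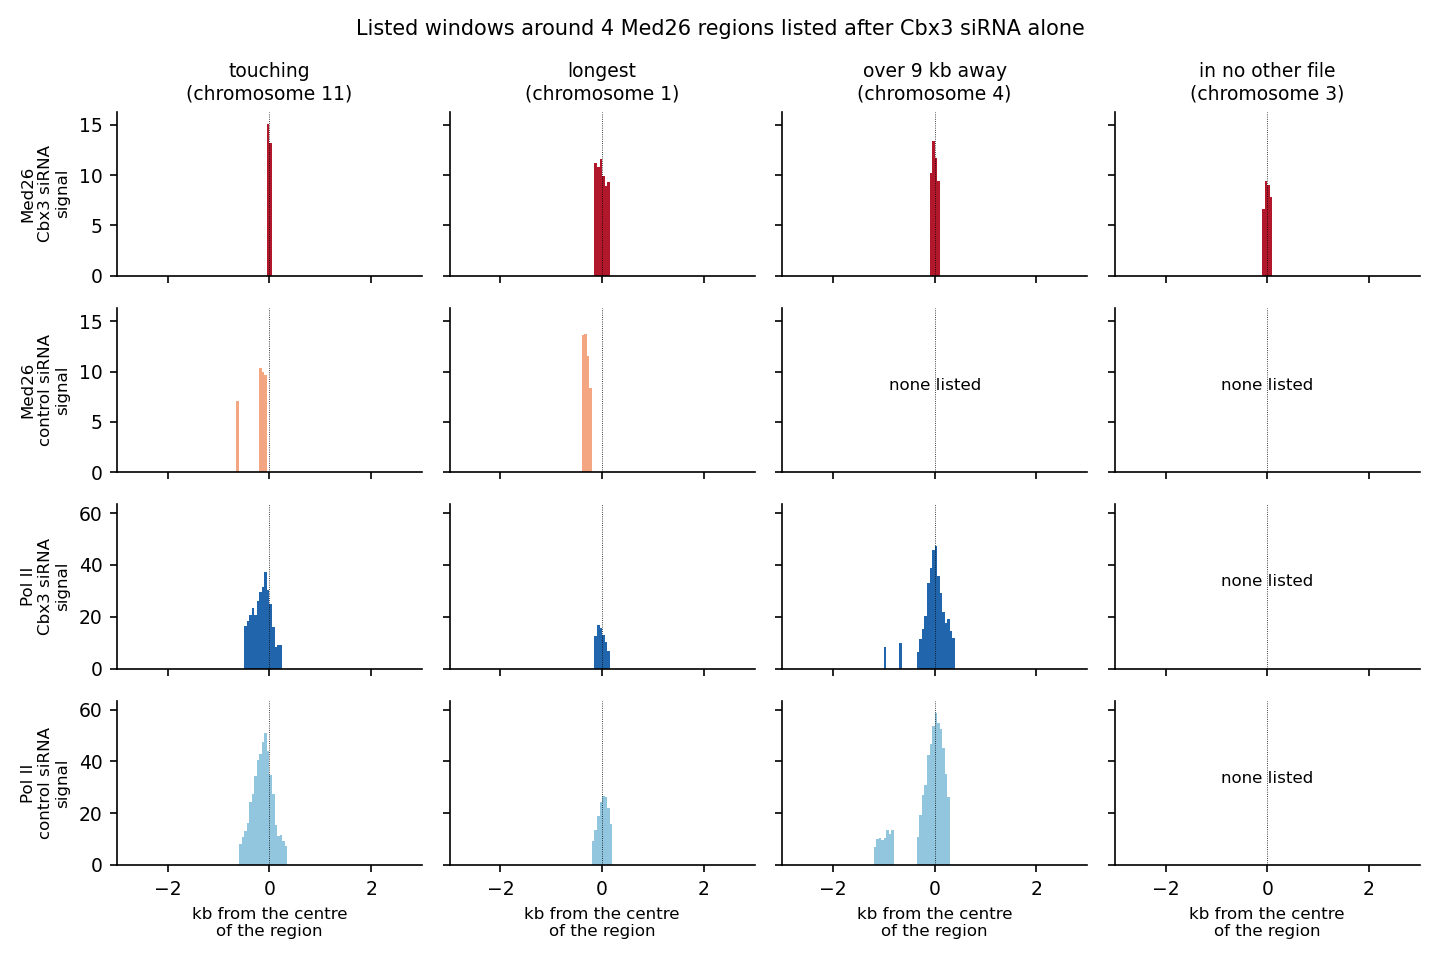
Authors' signal (y axes) of every listed window within 3 kb of the centre of 4 Cbx3 siRNA-alone Med26 regions (columns; x axes in kb), in the Med26 and Pol II libraries after Cbx3 siRNA and control siRNA (rows). Control Med26 lies beside the region at the chromosome 11 and chromosome 1 sites, Pol II lies under it at the first 3 sites, and the chromosome 3 site has neither.

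The highest Med26 signals were of another kind. The highest of all was a single window on chromosome 17 from 39981151 to 39981200, with 112 after Cbx3 siRNA. The control region 100 bp away was of like height, with 124.6 after control siRNA. Cdk8 was 313 after Cbx3 siRNA and 251 after control siRNA, Cbx3 was 1429.9 and 893 in sets 1 and 2, and Pol II was 158 after control siRNA and not listed in the other Pol II libraries. The next was on the mitochondrial genome from 12751 to 12800, with a Med26 signal of 37.8 and Cbx3 set 1 at 693. The third, on chromosome 11 from 3080151 to 3080200, had Med26 of 17.7 and Cbx3 set 1 of 591, with no Pol II. At these 3 sites signal was high for unlike proteins, and the inputs were not used here, so signal that does not come from Med26 cannot be told apart.

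Below them the remaining high regions lay at Pol II. On chromosome 8 from 74999351 to 74999450 Med26 was 13.9, 50 bp from a control region. On chromosome 7 from 71536951 to 71537000 it was 12.6, 100 bp from one of 12.2. On chromosome 11 from 16408401 to 16408450 it was 12.6 with the nearest control region 702850 bp away, and Pol II was 25.5 after Cbx3 siRNA and 44.5 after control siRNA. Of the 10 highest regions, 6 thus had a control region within 100 bp or touching.

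Across all 1229 regions Pol II was listed at 337 after Cbx3 siRNA (27.4%), at 376 after control siRNA (30.6%) and at 183 in untreated cells (14.9%). Regions of both arms had Pol II of these libraries in 90.9, 94.4 and 69.8% of cases. Control siRNA-alone regions had it in 68.1, 72.8 and 43.2%. The Pol II regions after Cbx3 siRNA span 5.26 Mb, which is 0.199% of the 2641.8 Mb obtained by summing the last listed base of each chromosome. So the Cbx3 siRNA-alone regions had Pol II less often than either other Med26 group, with no overlap of the intervals, while their share was far above the part of the genome that Pol II regions cover.

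**Figure D3:**
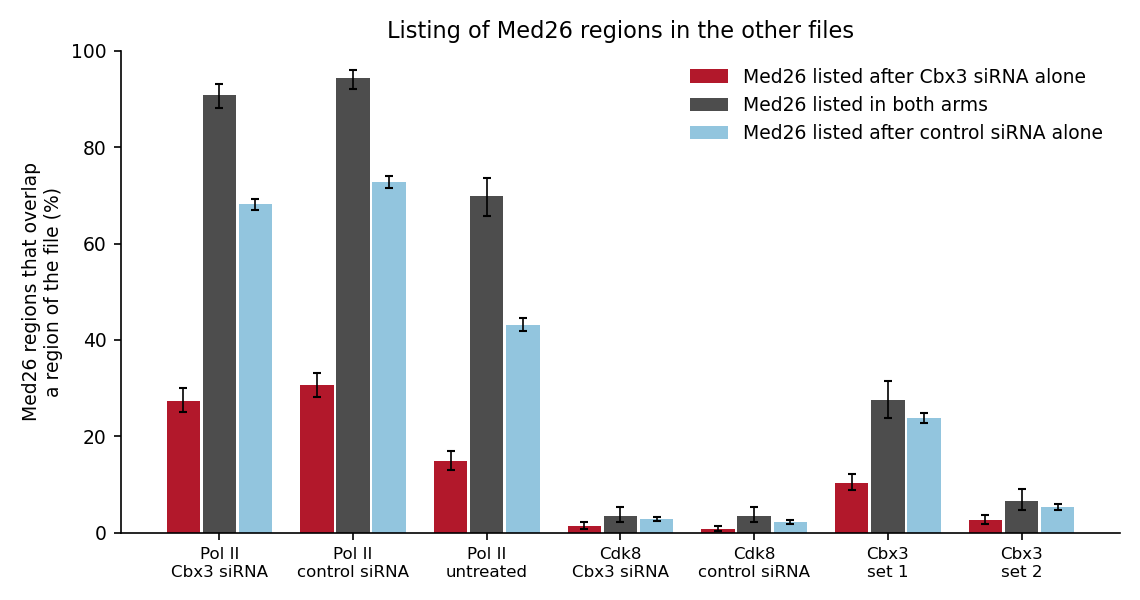
Share of Med26 regions (y axis, %) that overlap a region of each other library (x axis), for the 1229 regions listed after Cbx3 siRNA alone, the 516 of both arms and the 5474 listed after control siRNA alone; bars start at 0 and error bars are 95% Wilson intervals of counting error. The Cbx3 siRNA-alone regions have the lowest bar in every library, and their intervals overlap those of neither other group.

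Lower signal and narrower width went with this difference, and the comparison was repeated within classes of signal among single windows. At a Med26 signal of 6 to 7, 47 of 369 Cbx3 siRNA-alone windows had Pol II after Cbx3 siRNA (12.7%, interval 9.72 to 16.5%), against 24 of 26 in both arms (92.3%) and 147 of 546 after control siRNA alone (26.9%, interval 23.4 to 30.8%). At 7 to 8 the shares were 20.6%, against 84.1% in both arms and 39.9% after control siRNA alone. At 8 to 10 they were 36.7%, against 90.6% and 56.3% in the same groups. At 10 or more they were 11 of 17 (64.7%, interval 41.3 to 82.7%), against 24 of 29 in both arms (82.8%) and 77.9% after control siRNA alone, and the intervals overlapped. Below 10 the share was lower than in both other groups in every class, and it rose with signal.

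**Figure D4:**
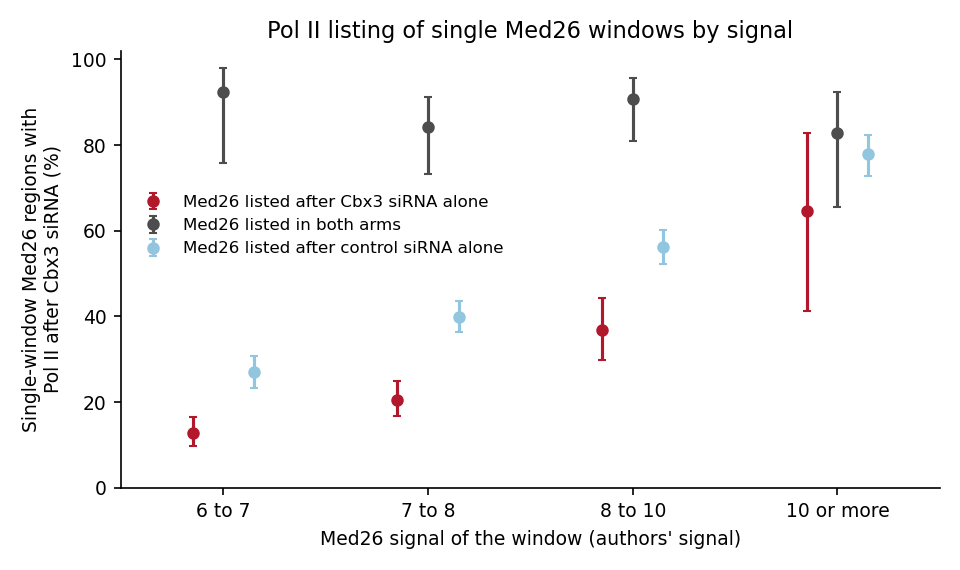
Share of single-window Med26 regions with Pol II listed after Cbx3 siRNA (y axis, %) by Med26 signal class (x axis), for the 3 groups of Med26 regions; points are shares and bars 95% Wilson intervals. The share of the Cbx3 siRNA-alone windows goes from 12.7% at 6 to 7 up to 64.7% at 10 or more, while that of both-arm windows stays between 82.8 and 92.3%.

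Pol II at these regions was for the most part present in both siRNA arms. It was listed in both at 311 regions (25.3%), after Cbx3 siRNA and not control siRNA at 26 (2.12%), and after control siRNA and not Cbx3 siRNA at 65 (5.29%). No region had it in untreated cells alone, and 827 (67.3%) had none. The split was 2.91% after Cbx3 siRNA and not control siRNA and 6.395% the other way at regions of both arms, and 4.06% and 8.73% in the same order at control siRNA-alone regions, so Pol II of the control arm alone was the more frequent kind in every Med26 group. Of the 337 regions with Pol II after Cbx3 siRNA, 7 lay in a Pol II region that was itself listed after Cbx3 siRNA alone, against a background of 31.9% of all Pol II regions of that library. The Pol II regions met here were stronger and longer than Pol II regions in general, as given below. That background is thus unlike, and the 7 are not read as a result.

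Where Pol II was listed, it was stronger than at Pol II sites in general. Its median signal at the 337 regions was 26.0 after Cbx3 siRNA (interval 24.8 to 28.5), against 15.4 over all 16426 Pol II regions of that library. It was 28.8 at regions of both arms and 24.97 at control siRNA-alone regions. The Pol II regions met by Cbx3 siRNA-alone Med26 were also longer, with a median span of 550 bp against 250 bp for all, and long regions are met more easily. The highest Med26 window lay a median of 100 bp from the highest Pol II window of the Cbx3 siRNA library (quartiles 50 and 250 bp), and 184 of 337 (54.6%) lay within 100 bp. For regions of both arms 69.5% lay within 100 bp, and for control siRNA-alone regions 61.4%.

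Pol II levels at these sites were mostly lower after Cbx3 siRNA, as they were at Pol II sites in general and at the other Med26 groups. Over the 311 regions with Pol II in both arms log2 of Pol II after Cbx3 siRNA over Pol II after control siRNA had a median of -0.33 (interval -0.38 to -0.29), and 259 (83.3%) were lower after Cbx3 siRNA, against 76.5% of all 10915 control Pol II regions listed in both arms, 83.9% at regions of both arms and 82.8% at control siRNA-alone regions. Over the 10915 the median was -0.29 (interval -0.29 to -0.28), and over the 4193 of them whose control Pol II signal lay between the quartiles of the 376 sites, 24.2 and 42.2, it was -0.36. Pol II was lower by over 1.5-fold at 71 of the 311 (22.8%), against a background of 21.5% of all Pol II regions. It was higher by over 1.5-fold at 1, against a background of 3.01%. The median was -0.34 at regions of both arms and -0.32 at control siRNA-alone regions. Among regions with Pol II in both arms, the Cbx3 siRNA-alone regions were thus near the other Med26 groups. Regions with Pol II listed in 1 siRNA arm or in neither give no such difference, so no statement is made on them.

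The one region past 1.5-fold was on chromosome X from 99384451 to 99384550, 50 bp from a control region. Pol II there was 24.8 after Cbx3 siRNA, against 16.0 after control siRNA, and 13.1 in untreated cells. The next highest differences were 0.52 on chromosome 19 from 37509151 to 37509200, with Pol II of 37.5 after Cbx3 siRNA and 26.0 after control siRNA, and 0.51 at the chromosome 7 window from 71536951, with 38.5 after Cbx3 siRNA, against 26.97 after control siRNA. Chromosome 3 from 88754901 to 88755000 followed with 0.50, then chromosome 13 from 96295001 to 96295050 with 0.47. All 5 lay within 350 bp of control Med26. Of all 311 regions with such a difference, 182 lay within 1 kb of control Med26, so no link is read from these 5.

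The lowest differences were larger in size. On chromosome 13 from 98010501 to 98010550 Pol II was 12.4 after Cbx3 siRNA and 34.5 after control siRNA, a log2 difference of -1.48, although Med26 (6.33) was listed after Cbx3 siRNA alone. On chromosome 14 from 31528751 to 31528800 Pol II was 16.2 after Cbx3 siRNA and 38.0 after control siRNA (-1.23), with Med26 of 8.49. On chromosome 11 from 4494751 to 4494800 the difference was -1.15. It was -1.08 at chromosome 19 from 5460551 to 5460600 and -1.04 at chromosome 2 from 113688701 to 113688750. The chromosome 11 window touched a control Med26 region with a signal of 14.1, and the chromosome 19 window lay 50 bp from one of 16.6. Both control signals were above that of the window beside them. The windows on chromosomes 13, 14 and 2 lay 169000, 60950 and 338250 bp from control Med26. At all of these sites the window was listed for Med26 after Cbx3 siRNA alone, and Pol II was lower after the knockdown.

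Cdk8 was seldom listed with these regions. It was listed at 17 after Cbx3 siRNA (1.38%, interval 0.865 to 2.20%) and at 10 after control siRNA (0.814%), and 21 of the 23 regions with Cdk8 in either arm had Pol II. The Cdk8 regions span only 0.0209% of the summed chromosome length after Cbx3 siRNA and 0.0191% after control siRNA. Both shares were thus small but far above the part of the genome that Cdk8 regions cover. Regions of both arms had Cdk8 in 3.49% of cases in each siRNA library, and control siRNA-alone regions in 2.78% after Cbx3 siRNA and 2.28% after control siRNA. Of the 17, 10 lay in a Cdk8 region that was listed after Cbx3 siRNA alone, against a background of 89.6% of all Cdk8 regions of that library. Signal and length of the Cdk8 regions met here were not compared with the rest, so the 10 are not read as a result.

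Only 4 regions had Cdk8 in both arms, named here after their values were seen. Besides the chromosome 17 window from 39981151 they included chromosome 1 from 79772651 to 79772750, with Cdk8 of 14.5 after Cbx3 siRNA and 12.1 after control siRNA. The chromosome 17 region from 56749201 to 56749300 had 12.6 after Cbx3 siRNA and 8.52 after control siRNA. On chromosome 7 from 26023351 to 26023400 Cdk8 was 36.1 after Cbx3 siRNA and 44.9 after control siRNA, Med26 was 7.30, and no Pol II was listed.

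Cbx3 of untreated cells covered 128 regions in set 1 (10.4%, interval 8.83 to 12.2%) and 32 in set 2 (2.60%). The regions of set 1 span 1.83% of the summed chromosome length and those of set 2 span 0.478%. A Cbx3 region called in both sets, meaning one of set 1 that overlaps set 2, lay at 26 (2.12%, interval 1.45 to 3.08%). It lay at 6.01% of regions of both arms and at 4.13% of control siRNA-alone regions. In single windows the set 1 shares were 8.08%, against 19.2% in both arms and 13.9% after control siRNA alone, so the set 1 share was lower at equal width. The set 2 shares of single windows were 2.02% (interval 1.30 to 3.13%), against 3.85% in both arms (interval 1.88 to 7.73%) and 2.53% after control siRNA alone (interval 1.94 to 3.29%), and these intervals overlap. For Cbx3 of both sets they were 1.91% (interval 1.21 to 3.003%), against 7.14% in both arms (interval 4.22 to 11.8%) and 2.76% after control siRNA alone (interval 2.14 to 3.56%), where the first and the last overlap. Within 1 kb of control Med26 the set 1 share was 25.5%, and farther off it was 6.31%. Of the 147 regions with Cbx3 of either set, 109 also had Pol II, so Cbx3 was met mainly together with Pol II, and 38 had neither Pol II nor Cdk8. At the 827 regions without Pol II the set 1 share was 3.99% (interval 2.86 to 5.55%), above the 1.83% that set 1 spans. Since 1 common base makes an overlap, the 38 are not read as a Cbx3 result.

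The 5 named regions listed in the most other libraries all combined Pol II with Cbx3, most of them with Cdk8 too. The choice fixes much of this: the Cdk8 and Cbx3 libraries together are fewer than 5, so Pol II must be among 5 listed libraries. After the chromosome 17 window above, the region on chromosome 11 from 4965201 to 4965300 had Med26 of 11.1, Pol II of 21.1 after Cbx3 siRNA, 36.6 after control siRNA and 29.4 untreated, Cdk8 of 10.1 after Cbx3 siRNA and none after control siRNA, and Cbx3 of 57.4 in set 1. On chromosome 9 from 121766801 to 121766950 Med26 was 8.89 and Cdk8 was 12.3 after Cbx3 siRNA and not listed after control siRNA, with Pol II in all 3 libraries. On chromosome 13 from 81024651 to 81024750 Cdk8 was not listed after Cbx3 siRNA and was 9.31 after control siRNA. On chromosome 18 from 82862351 to 82862500 Cbx3 of both sets was listed, 71.7 and 20.5, with no Cdk8. In all, 14 regions were in 5 of the 7 other libraries and none was in more.

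The larger part was listed nowhere else: 787 of 1229 regions (64.0%) were in none of the 7 Pol II, Cdk8 and Cbx3 libraries. Single windows made up 84.8% of them, their median signal stood for 7.48 reads on the reading above, and their highest signal was 11.2. They lay a median of 117400 bp from control Med26. Only 4 of the 77 touching regions were among them, on chromosomes 2, 7, 9 and 12 (from 115407101, 73205201, 75862801 and 85658201). Of the 827 regions without Pol II, 96 (11.6%) had a Pol II region of the Cbx3 siRNA library within 1 kb.

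These regions were unevenly spread over the chromosomes. All 1229 gave 49.3 per 100 Mb over the autosomes, from 36.6 on chromosome 13 to 76.3 on chromosome 11, and the mitochondrial genome and chromosome Y held 1 each. Those with Pol II were densest on chromosome 11 (34.5 per 100 Mb), where Pol II regions themselves were densest. Those in no other library were densest on chromosome 8, with 51.6 per 100 Mb against 31.7 over the autosomes. Chromosome 8 was also the densest for control siRNA-alone Med26 regions in no other library (74.4 against 46.3) and for Cdk8 regions listed after Cbx3 siRNA alone and nowhere else (232 against 153).

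Chromosome X held 7 of the 1229 regions, 4.20 per 100 Mb (exact Poisson interval 1.69 to 8.66), or 8.52% of the autosomal density. Of these 3 were in no other library, from 53520001, 99355201 and 99855101, which is 1.80 per 100 Mb or 5.68% of the autosomal density of that group. Control siRNA-alone regions in no other library had 7.78% of their autosomal density on chromosome X, the Cdk8 regions 7.46%, and Pol II regions after Cbx3 siRNA 34.1%. The source of this unevenness was not tested.

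**Figure D5:**
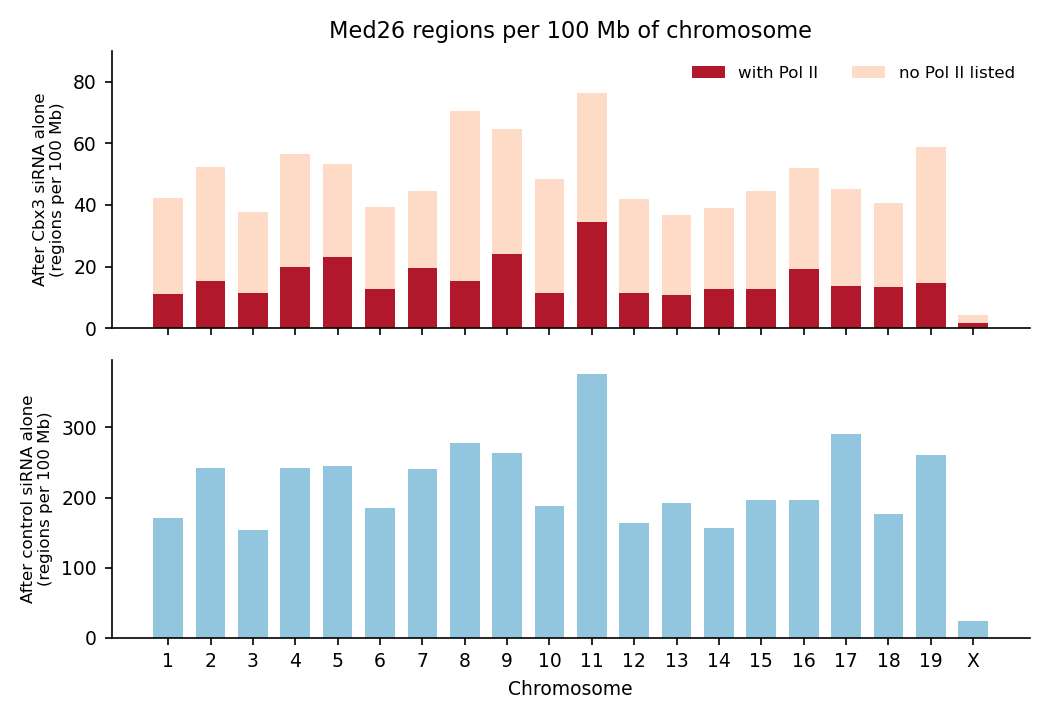
Med26 regions per 100 Mb (y axes, chromosome length taken as the last base listed in any library) on each autosome and chromosome X (x axis), after Cbx3 siRNA alone (above, split by Pol II listing in any library) and after control siRNA alone (below). Both panels peak on chromosome 11 and are lowest on chromosome X, with 4.20 and 24.6 regions per 100 Mb there; in the upper panel chromosome 8 is second.

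The regions seldom lay in groups. Another Cbx3 siRNA-alone region was within 10 kb of 28 of them (2.28%), and a Med26 region of both arms within 10 kb of 30 (2.44%).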

How the data were processed

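ChIP-seq files of 9 libraries were used; the 7 inputs were not used here. The deposited values are signal per window of 50 bp, made by the authors. Bowtie and build mm9 are named in the submitters' processing notes; how windows were tested, at which threshold and against which input is not given in the sources used here. Every value in a library was a whole number of steps, with a tolerance of 0.05 steps.

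Windows with gaps of at most 200 bp were joined, and 1 common base made an overlap. Distances count the bases between regions. Shares carry 95% Wilson intervals and medians binomial order-statistic intervals, for counting error only; regions are not replicates and neighbouring windows share reads. No test across regions was run. A Pol II log2 difference compares the highest windows of the Pol II regions at a site.

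The regions, comparisons and limits were chosen with earlier results of these data known. Named regions are the 10 highest, the 10 longest, the 3 nearest to a control region, the 3 of both arms with the smallest shared length, the 5 highest and 5 lowest Pol II differences and the 5 in the most other libraries. Alternatives changed merging, overlap, distance, signal, width and the Cbx3 set. Merging, overlap and distance were tested on simulated data. The tools were Python 3.11.15, scipy 1.17.1, numpy 2.4.6, matplotlib 3.10.9 and pandas 2.3.3.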

Additional observations from a re-analysis of the deposited data

How the results depend on the processing

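Printed here are values outside the interval of the reported one; the cause was not tested. More than 1000 bp from every control region, single windows were 80.0%, the median signal was 7.33 and the median distance 105225 bp; Pol II was at 15.01% after Cbx3 siRNA, 17.8% after control siRNA and 8.07% untreated, Cdk8 at 0.621% after Cbx3 siRNA and 0.414% after control siRNA, and Cbx3 of both sets at 0.932%. At or above the median signal of all Med26 Cbx3 siRNA regions, 508 regions were left, with 60.8% single windows, a median signal of 8.33 and a median distance of 32275 bp; Pol II was at 41.1% after Cbx3 siRNA, 44.7% after control siRNA and 24.0% untreated. With 2 or more windows, 288 regions were left (0% single windows by construction), with a median signal of 8.22 and a median distance of 24850 bp; Pol II was at 47.9% after Cbx3 siRNA, 53.1% after control siRNA and 32.6% untreated, and Cdk8 at 2.43% after Cbx3 siRNA and 1.74% after control siRNA. Merging up to 1000 bp put Cbx3 of both sets at 4.21%, and either Cbx3 set alone gave 2.60 to 10.4%. Under each of these the Pol II share stayed below the 90.9% of regions of both arms, and the Pol II difference kept its sign. The alternatives of 50% shared length, merging of touching windows, leaving out regions in 6 or more libraries and, added after seeing the data, leaving out the mitochondrial genome and the chromosome 17 stretch from 39 to 40 Mb moved none of the values given for the Cbx3 siRNA-alone regions. No paired analysis was possible because both arms rest on single libraries. The low read equivalents, with quartiles of 7.04 and 8.46, limit every statement on a single region.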
